A study of Mus musculus with 14 samples.

Results

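miR-375-3p, the mature microRNA (miRNA) from the 3' arm of the Mir375 hairpin, was followed along the mouse epididymis. It was chosen by its measured values in these libraries. It is 1 of 900 mature miRNAs listed for whole tissue and 1 of 677 listed for epithelial cells. Its differences between regions and between preparations are therefore given as a description, with errors and without a test.

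Small RNA was sequenced from the caput, corpus and cauda of 8 week old male Swiss mice that had received no treatment named in the labels. Blood vessels were flushed with saline before dissection, and every library pooled material from several mice, 3 per library for whole tissue. Whole tissue gave 3 caput, 2 corpus and 3 cauda libraries, and epithelial cells gave 2 libraries from each region. The epithelial cells came from digested tissue cleared of sperm and were those still in suspension after 4 h on culture plates, to which fibroblasts and muscle cells are described as attaching, pooled from 9 mice for caput or corpus and from 12 mice for cauda. The study asked how miRNA profiles differ between these segments, in which sperm mature (caput and corpus) and are stored (cauda).

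miR-375 is best known from the pancreatic islet, where it is abundant in the hormone-secreting cells and takes part in the control of insulin secretion. It is also expressed in other neuroendocrine cells and in several secretory epithelia. Like other miRNAs it guides Argonaute proteins to messenger RNAs that pair with its seed, the short stretch near its 5' end.

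Depth ranged from 1243398 to 2135501 counts per library in whole tissue and was lower in epithelial cells, from 89039 to 362867. Levels are given as CPM, a unit relative to depth, after scaling by the trimmed mean of M values (TMM), which was computed separately for each table, so that levels in whole tissue and epithelial cells are on separate scales. All 14 counts of miR-375-3p were whole numbers.

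In whole tissue, miR-375-3p reached 6106 CPM in caput replicate 1, 11350 CPM in caput replicate 2 and 5280 CPM in caput replicate 3. The corpus libraries held 5363 CPM in replicate 1 and 2995 CPM in replicate 2. The cauda libraries held 547 CPM, 493 CPM and 470.4 CPM. The 3 cauda libraries lay far below all others, whereas caput and corpus overlapped, since corpus replicate 1 was above caput replicate 3. The means were 7579 ± 3292 CPM in caput (SD, n = 3), 4179 ± 1674 CPM in corpus (SD, n = 2) and 504 ± 39.4 CPM in cauda (SD, n = 3). The order of the means was thus caput, corpus, cauda, with the caput and corpus libraries overlapping.

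In epithelial cells, the caput libraries held 4221 and 3510 CPM of miR-375-3p. The corpus libraries held 2053 CPM and 1634 CPM, and the cauda libraries 115 CPM in replicate 1 and 535 CPM in replicate 2. Here the 3 regions did not overlap, and the order was again caput, corpus, cauda. The means were 3866 ± 503 CPM in caput, 1843 ± 297 CPM in corpus and 325 ± 297 CPM in cauda (SD, n = 2 each). The cauda values rested on few counts, 31 in replicate 1 and 112 in replicate 2. By library totals these gave 109 CPM (exact 95% interval 74.4 to 155) and 625 CPM (515 to 753), so that the 2 libraries differed beyond counting error. Such intervals cover counting error only, because reads amplified without molecular identifiers are not independent molecules.

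**Figure D1:**
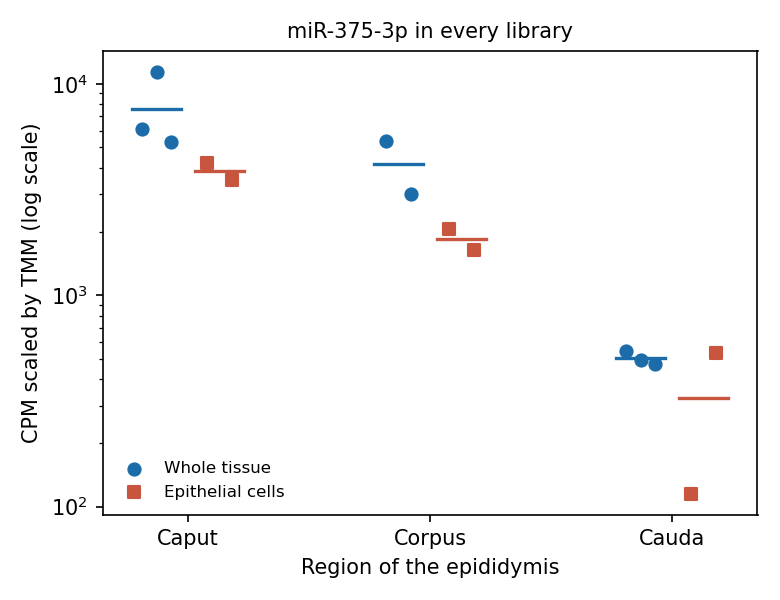
miR-375-3p in each of the 14 libraries, as CPM scaled by TMM on a logarithmic axis, by region and preparation. Points are libraries and bars are group means. The whole tissue cauda libraries lie between 470.4 and 547 CPM, below all caput and corpus libraries, and the epithelial cauda libraries lie at 115 and 535 CPM.

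From caput to cauda, the log2 fold change of miR-375-3p fitted by limma-voom was -3.82 in whole tissue (SE 0.302, 95% interval -4.50 to -3.15) and -4.01 in epithelial cells (SE 0.510, -5.19 to -2.83). These correspond to a 14.2-fold and a 16.1-fold lower level in the cauda. From corpus to cauda it was -2.99 in whole tissue (SE 0.337) and -2.95 in epithelial cells (SE 0.543). From caput to corpus it was -0.83 in whole tissue (SE 0.309, 95% interval -1.52 to -0.15) and -1.06 in epithelial cells (SE 0.416, -2.02 to -0.10). Most of the decline on the log2 scale thus lay between corpus and cauda. Single libraries set the size of some of these values. Without whole tissue corpus replicate 1 or 2, the step from caput to corpus was -1.26 or -0.36. Other choices of processing put this step between -0.99 and -0.50. Without epithelial cauda replicate 1 or 2, the change from caput to cauda was -2.78 or -5.04, and that from corpus to cauda -1.78 or -4.01. In these bulk samples, fewer cells of a type that makes miR-375-3p and less miR-375-3p per cell cannot be told apart.

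Many miRNAs differed between regions, which sets the background for any single one. A miRNA was tested if its mean count was above 10 in a region compared, and was called at a Benjamini-Hochberg adjusted p below 0.05 and at least a 2-fold change. In whole tissue, 98 of 355 miRNAs were called higher in cauda than in caput (27.6%) and 90 lower (25.4%). Between caput and corpus, 47 of 334 were higher in the corpus (14.1%) and 53 lower (15.9%), and between corpus and cauda 49 of 341 were higher in the cauda (14.4%) and 44 lower (12.9%). In epithelial cells, 30 of 216 were called higher in cauda than in caput (13.9%) and 26 lower (12.0%). Between caput and corpus, 13 of 205 were higher in the corpus (6.34%) and 12 lower (5.85%), and between corpus and cauda 13 of 192 were higher in the cauda (6.77%) and 8 lower (4.17%). The epithelial counts depended on single libraries. Without epithelial caput replicate 1, caput replicate 2 or corpus replicate 1, the calls between caput and corpus numbered 16, 10 or 13. Without caput replicate 2, corpus replicate 1 or corpus replicate 2, those between corpus and cauda numbered 8, 4 or 8, and without caput replicate 2 those between caput and cauda numbered 26. Nothing is read from these shares for miR-375-3p itself, which was selected on the same comparisons.

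Ordered by fitted fold change, miR-375-3p showed the fifth lowest value of the 355 miRNAs tested between caput and cauda of whole tissue. Those below it were miR-204-5p, miR-138-5p, miR-9-3p and miR-9-5p. In epithelial cells 2 of 216 miRNAs, miR-204-5p and miR-9-5p, lay below it. From corpus to cauda, miR-204-5p, miR-211-5p and miR-598-3p lay below it among 341 miRNAs in whole tissue, and miR-204-5p among 192 in epithelial cells. From caput to corpus it ranked only 67th of 334 in whole tissue and 32nd of 205 in epithelial cells. These orders are a description, and miR-138-5p, miR-9-3p, miR-211-5p and miR-598-3p were named after their values were seen.

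The change was also visible as a drop in abundance rank. In whole tissue, miR-375-3p ranked 21st, 19th and 25th in the caput libraries, 24th and 35th in the corpus libraries and 80th, 78th and 84th in the cauda libraries. By mean level it stood next to let-7a-5p (9454 ± 568 CPM) and miR-200a-3p (7408 ± 551 CPM) in caput (SD, n = 3). In corpus it stood between miR-200c-3p (4226 ± 166 CPM) and miR-30d-5p (3627 ± 109 CPM; SD, n = 2). In cauda its neighbours were miR-222-3p (549 ± 77.4 CPM) and miR-410-3p (495 ± 43.1 CPM; SD, n = 3). Its neighbours in mean level were thus much scarcer in cauda than in caput. Of these neighbours, only let-7a-5p and miR-30d-5p differ from the mean of miR-375-3p by more than their own SD, and none by more than the SD of miR-375-3p in caput or corpus.

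In epithelial cells, the ranks were 32nd and 33rd in caput, 41st and 48th in corpus, and 137th and 84th in cauda. The neighbours in mean level were miR-200a-3p (3930 ± 244 CPM) and miR-34c-5p (3686 ± 299 CPM) in caput, let-7d-5p (1881 ± 220 CPM) and miR-151-5p (1840 ± 668 CPM) in corpus, and miR-881-3p (325 ± 181 CPM) and miR-871-3p (322 ± 44.4 CPM) in cauda (SD, n = 2 each). These neighbours all lay within 1 SD of miR-375-3p.

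In 5 of the 6 groups miR-375-3p varied more between libraries than the median miRNA. Among the 211 miRNAs with a mean of at least 50 counts in whole tissue caput, its highest value over its lowest, 2.15-fold on a log2 CPM scale with a small count added, was the fourth widest, against a median of 1.21-fold. In whole tissue corpus it was the fifth widest of 213, at 1.79-fold against a median of 1.095-fold. Those wider were miR-1a-3p and miR-133a-3p, higher in replicate 2, and miR-9-5p and miR-138-5p, higher like miR-375-3p in replicate 1. In whole tissue cauda it varied less than the median, 157th of 230, at 1.163-fold against 1.229-fold. In epithelial cauda it was the widest of 118, at 4.58-fold against a median of 1.23-fold. The next widest there were miR-145-5p (4.02-fold, higher in replicate 1), miR-34b-3p (3.24-fold, higher in replicate 2) and miR-34b-5p (2.97-fold, higher in replicate 2). In epithelial caput and corpus it ranked 39th of 120 and 25th of 87, at 1.202-fold and 1.255-fold against medians of 1.14-fold and 1.159-fold. This order of spreads was computed after the values were seen.

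The epithelial cauda libraries also differed in markers of other cells. In replicate 1, where miR-375-3p was low, the summed level of the 7 muscle miRNAs was 337270 CPM, against 158450 CPM in replicate 2. The sum of the 5 miR-200 family members was 13409 CPM in replicate 1 and 18628 CPM in replicate 2, and that of the 12 germ cell miRNAs 2647 and 6493 CPM. The sum of the 3 red blood cell miRNAs was 2930 and 1566 CPM, and that of the 3 fibroblast miRNAs 3679 and 2463 CPM. The part of these differences in the miR-375-3p values was not tested.

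The preparations were compared in a limma-voom fit of all 14 libraries over the 194 miRNAs that passed the same count filter in both tables under the same name. In caput, miR-375-3p was lower in epithelial cells than in whole tissue, with a log2 difference of -1.10 (SE 0.332, 95% interval -1.81 to -0.39). As a share of all counts in a library, which involves no TMM scaling, the epithelial caput libraries held 0.374% and 0.335%, below the 0.546%, 0.954% and 0.450% of the whole tissue caput libraries. In corpus it was also lower in epithelial cells, by a log2 difference of -1.22 (SE 0.448, -2.18 to -0.26). The shares there were 0.199% and 0.1797% in epithelial cells and 0.5773% and 0.3283% in whole tissue. In cauda the difference was -1.27 (SE 0.580, -2.51 to -0.03), with an interval reaching close to 0. By share of counts the cauda libraries overlapped. Epithelial replicate 1 held 0.01094%, but replicate 2 held 0.06255%, above the 0.0598%, 0.05494% and 0.05109% of whole tissue. Preparation went together with culture, with the number of mice pooled, with depth and with the deposited table, which cannot be told apart. Markers of cell types moved with it as well. Of the 7 muscle miRNAs in the list, only 2 entered this fit, which needed the same name and the count filter in both tables. Of these, 2 of 2 were called higher in epithelial caput (median 2.51), 2 of 2 in corpus (median 2.13) and 0 of 2 in cauda. Of all miRNAs, 15.5%, 12.4% and 21.6% were called higher. Of the miR-200 family, 2 of 5 members were called lower in epithelial caput, 0 of 5 were called in corpus by limma, and 2 of 5 were called higher in cauda. Of the germ cell miRNAs, 2 of 8 were called lower in caput, 1 of 8 in corpus and 7 of 8 in cauda, against 21.6%, 18.0% and 18.0% of all miRNAs. Of the fibroblast miRNAs, 2 of 3 were called higher and 1 lower in caput, 0 higher and 1 lower in corpus, and 1 higher and 1 lower in cauda. Only 1 of the 5 leukocyte miRNAs entered this fit, and it was called higher in caput and cauda. For each of these lists, the shares of all miRNAs called higher were 15.5%, 12.4% and 21.6% in caput, corpus and cauda. Those called lower were 21.6%, 18.0% and 18.0%. The part of these markers in the values of miR-375-3p was not tested.

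Many miRNAs differed between the preparations. In caput, 30 of the 194 miRNAs were called higher in epithelial cells (15.5%) and 42 lower (21.6%). In corpus 24 were higher (12.4%) and 35 lower (18.0%), and in cauda 42 were higher (21.6%) and 35 lower (18.0%). The median log2 difference of all 194 was -0.28 in caput, -0.03 in corpus and 0.08 in cauda. With scaling by library totals the split became 41 higher and 26 lower in caput and 53 higher and 28 lower in cauda, and with DESeq2 size factors 30 higher and 43 lower in cauda.

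The size of these differences depended on single libraries and on scaling, while the sign was negative in every fit that was run. In caput the difference was -0.79 without whole tissue caput replicate 2, -1.13 without epithelial caput replicate 1 and -0.89 without epithelial cauda replicate 2. With library totals it was -0.78. In corpus it was -0.81 without whole tissue corpus replicate 1, -1.75 without whole tissue corpus replicate 2, -1.22 without whole tissue cauda replicate 3, -1.34 without epithelial corpus replicate 1 and -1.13 without epithelial corpus replicate 2. With the replicate number as a block it was -1.37. The values in cauda moved most. There the difference was -1.27 without whole tissue caput replicate 2, -1.44 without whole tissue corpus replicate 2, -2.47 without epithelial cauda replicate 2 and -0.22 without epithelial cauda replicate 1.

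How far the decline differed between preparations is described by the interaction of preparation and region, without a test, because it is made of the same changes between regions. The interaction, epithelial cells minus whole tissue, was -0.12 from caput to corpus (SE 0.557, 95% interval -1.32 to 1.07). It was -0.05 from corpus to cauda (SE 0.733, -1.62 to 1.52) and -0.17 from caput to cauda (SE 0.668, -1.60 to 1.26). The intervals include 0 and allow the fold change from caput to cauda to differ by more than 2-fold in either direction. Over the 194 miRNAs, 8 interactions were called from caput to corpus (4.12%), 13 from corpus to cauda (6.70%) and 39 from caput to cauda (20.1%). Leaving out an epithelial cauda library moved the interaction from caput to cauda to 0.87 (without replicate 1) or -1.58 (without replicate 2), and that from corpus to cauda to 1.16 or -1.21. Leaving out whole tissue corpus replicate 1 or 2 moved the interaction from caput to corpus to 0.29 or -0.68.

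The miR-200 family, which maintains the epithelial state by repressing ZEB transcription factors, gives a reference within the epithelial miRNAs. In whole tissue caput, miR-375-3p amounted to 30.4%, 52.2% and 26.3% of the summed counts of the 5 family members. In corpus it was 33.1% and 19.3%, and in cauda 6.26%, 6.81% and 6.05%. The cauda libraries again lay below all others, while caput and corpus overlapped. The mean percentage was 36.3 ± 13.9 in caput (SD, n = 3) and 6.37 ± 0.392 in cauda (SD, n = 3), a 5.69-fold difference, against 15.1-fold for the mean CPM. In this tissue the family itself was less abundant in the cauda.

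In epithelial cells, miR-375-3p was 24.4% and 23.0% of the family in caput, 11.5% and 8.98% in corpus, and 0.861% and 2.87% in cauda. No 2 regions overlapped. The means of 23.7 ± 0.933% in caput and 1.87 ± 1.42% in cauda (SD, n = 2 each) differed 12.7-fold, close to the 11.9-fold of the mean CPM. Leaving out 1 member, miR-200a-3p in whole tissue and miR-200b-3p, which led the family only in the cauda, in epithelial cells, gave means of 56.8% and 10.5% in whole tissue caput and cauda and of 29.5% and 2.99% in epithelial caput and cauda.

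**Figure D2:**
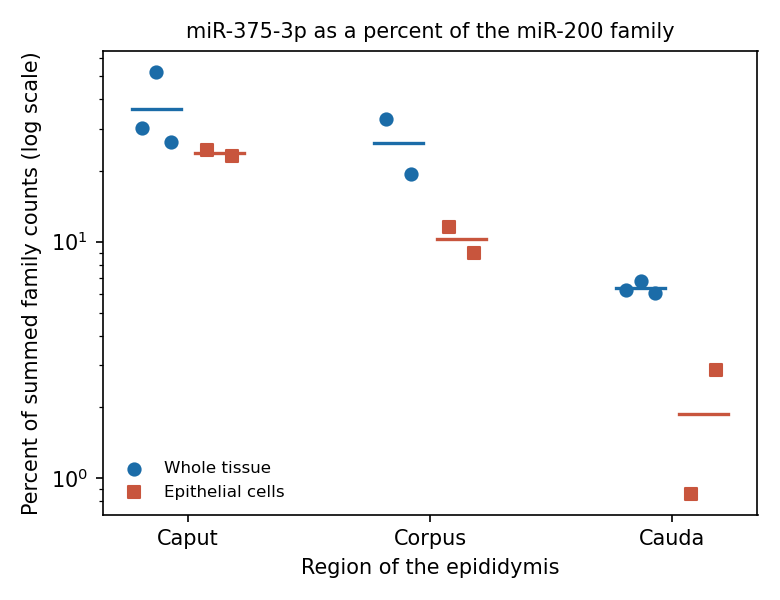
miR-375-3p counts as a percentage of the summed counts of miR-200a-3p, miR-200b-3p, miR-200c-3p, miR-141-3p and miR-429-3p, on a logarithmic axis, by region and preparation. Points are libraries and bars are group means. Cauda libraries lie at or below 6.81% and caput libraries at or above 23.0%.

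The miR-200 family moved in whole tissue but not in the same way in epithelial cells. From caput to cauda of whole tissue, 5 of 5 members were called lower (median log2 fold change -1.17, against -0.05 for all 355 miRNAs), although with library totals only 1 of the 5 was. Of all 355 miRNAs, 25.4% were called lower. In epithelial cells 0 of 5 members were called by limma in either direction (median -0.19, against -0.00 for all 216), and 1 was called higher with library totals. Of all 216 miRNAs, 13.9% were called higher and 12.0% lower. Without epithelial caput replicate 1 or cauda replicate 1, 1 member was called higher, and without cauda replicate 2, 1 was called lower. The interaction from caput to cauda was called for 3 of 5 members, against 20.1% of all 194 miRNAs, with miR-200b-3p the largest at 2.07 (SE 0.212, limma adjusted p = 1.14e-05). The effect of scaling on all miRNAs should be set beside this, as library totals moved the median change from caput to cauda by 0.35 in whole tissue and by 0.18 in epithelial cells.

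Of the 8 other epithelial miRNAs, 3 were called lower and 0 higher in whole tissue cauda than in caput (median -0.87), namely those of the miR-183 cluster, miR-182-5p (-1.93), miR-183-5p (-1.83) and miR-96-5p (-1.62). Over all miRNAs 25.4% were called lower. In epithelial cells 2 were called lower, miR-31-5p (-2.01) and miR-182-5p (-1.56), against 12.0% of all. miR-205-5p, a miRNA of basal and stratified epithelia, was at 11001 ± 264 CPM in epithelial caput, 21573 ± 1040 CPM in corpus and 21355 ± 1586 CPM in cauda (SD, n = 2 each). In the fit of all libraries it was called higher in epithelial cells than in whole tissue in each region, by a log2 difference of 2.25 in caput, 3.35 in corpus and 4.12 in cauda. Of the list as a whole, 2 of 8 members were called higher and 0 lower in caput (median -0.54), against 15.5% higher and 21.6% lower of all miRNAs. In corpus 2 were higher and 2 lower (median -0.52), against 12.4% and 18.0%, and in cauda 3 were higher and 1 lower (median 0.04), against 21.6% and 18.0%.

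Other miRNAs of islet and neuroendocrine cells moved in both directions in whole tissue. Of 11 in the list, 10 were listed in whole tissue and 6 tested from caput to cauda, of which 3 were called higher and 3 lower (median 0.36), against 27.6% and 25.4% of all miRNAs. Those lower were miR-204-5p (-5.42), miR-9-5p (-4.22) and miR-153-3p (-1.18). Those higher were miR-184-3p (2.50), miR-132-3p (1.89) and miR-124-3p (3.08, at only 6.34 ± 2.13 CPM in cauda). In epithelial cells 5 were tested, and miR-204-5p (-5.19) and miR-9-5p (-4.48) were called lower and 0 higher (median -1.56, against -0.00 for all 216, of which 12.0% were called lower and 13.9% higher). miR-7a-5p, among the most abundant islet miRNAs, was close to 0 throughout, at 2.71 ± 0.999 CPM in whole tissue caput (SD, n = 3), and miR-217-5p, a miRNA of the exocrine pancreas, was at 0 in the caput. miR-204-5p was the most abundant member of this list in every library.

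Several lists of markers of other cells were higher in the whole tissue cauda. In whole tissue, 7 of 7 muscle miRNAs were called higher in cauda than in caput (median 2.30), as were 10 of 12 germ cell miRNAs (median 2.67), 3 of 3 red blood cell miRNAs (median 3.13), and 3 of 5 leukocyte miRNAs (median 1.16), against 27.6% of all miRNAs. Only 1 of 3 fibroblast miRNAs (median 0.63) and 0 of 2 endothelial miRNAs (median 0.24) were called higher by limma. The summed muscle level was 66013, 57569 and 53264 CPM in the caput libraries, 80408 and 76412 CPM in corpus, and 245800, 223580 and 249950 CPM in cauda. Nearly all of it was miR-143-3p, a miRNA of smooth muscle and other mesenchymal cells. The summed germ cell level was 4350, 5442 and 4875 CPM in caput, 5156 and 6022 CPM in corpus, and 13907, 10404 and 12038 CPM in cauda, mostly miR-34c-5p, which ciliated and other epithelia also express. The part of these markers in the decline of miR-375-3p in whole tissue was not tested.

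In epithelial cells, 0 of 4 muscle miRNAs tested were called by limma between caput and cauda (median 0.37). Of the germ cell miRNAs 3 of 8 tested were higher (median 2.03), and all 3 red blood cell miRNAs (median 2.18), both leukocyte miRNAs tested (median 1.30) and 1 of 3 fibroblast miRNAs (median -0.32) were higher, against 13.9% of all miRNAs, while 0 of 2 endothelial miRNAs were called (median 0.67). The markers of the epithelial label were mixed. The isolation was meant to remove fibroblasts and muscle cells, and its authors describe enrichment by antibody staining. Of the other epithelial list, miR-205-5p and miR-203-3p were called higher than in whole tissue in each region, the latter by 1.02, 1.81 and 1.94 in caput, corpus and cauda, and miR-183-5p was called higher in cauda (1.21). miR-31-5p was called lower in corpus (-1.16) and cauda (-2.29) and miR-182-5p lower in corpus (-1.02). miR-143-3p was the most abundant miRNA of all 6 epithelial libraries, with 12.4% and 17.8% of counts in caput, 20.1% and 21.9% in corpus, and 30.1% and 17.9% in cauda. The summed endothelial level was 35766 and 25528 CPM in caput, 14321 and 13089 CPM in corpus, and 56669 and 46619 CPM in cauda. The share of other cells in these libraries was not measured here. The list of miRNAs measured by PCR, from which miR-375-3p itself is left out here, was chosen on these sequencing data and so is no independent evidence. The PCR used other pools of mice and is not among the data analysed. The list had 3 of 8 members called higher and 4 lower in whole tissue (median -0.98), against 27.6% and 25.4% of all miRNAs. In epithelial cells 3 were higher and 3 lower (7 tested, median -0.86), against 13.9% and 12.0%.

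The miRNAs whose levels followed miR-375-3p most closely were ranked by the mean of their Pearson correlations over the 8 whole tissue and the 6 epithelial libraries, among 193 miRNAs. The 5 highest were miR-148a-3p (r = 0.963 in whole tissue and 0.963 in epithelial cells), miR-204-5p (0.979 and 0.940), miR-744-5p (0.948 and 0.944), miR-872-5p (0.936 and 0.937) and miR-182-5p (0.965 and 0.899). The libraries share region as the main source of variation, so that any miRNA graded from caput to cauda correlates, and no p is given. miR-204-5p came nearest in size of the change, with 13985 ± 306, 5487 ± 629 and 329 ± 42.7 CPM in whole tissue caput, corpus and cauda. The far more abundant miR-148a-3p fell less steeply, from 155180 ± 20440 to 40293 ± 2766 CPM (SD, n = 3). With library totals the same 5 were highest, and with Spearman correlation 3 of them were among the first 5.

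The 3 lowest mean correlations belonged to miR-127-3p (-0.974 in whole tissue and -0.977 in epithelial cells), miR-410-3p (-0.967 and -0.959) and miR-411-5p (-0.966 and -0.952). All 3 lie in the imprinted Dlk1-Dio3 region of chromosome 12. miR-410-3p was at 186 ± 4.99, 257 ± 1.44 and 495 ± 43.1 CPM in whole tissue caput, corpus and cauda, so that it met miR-375-3p in level only in the cauda.

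**Figure D3:**
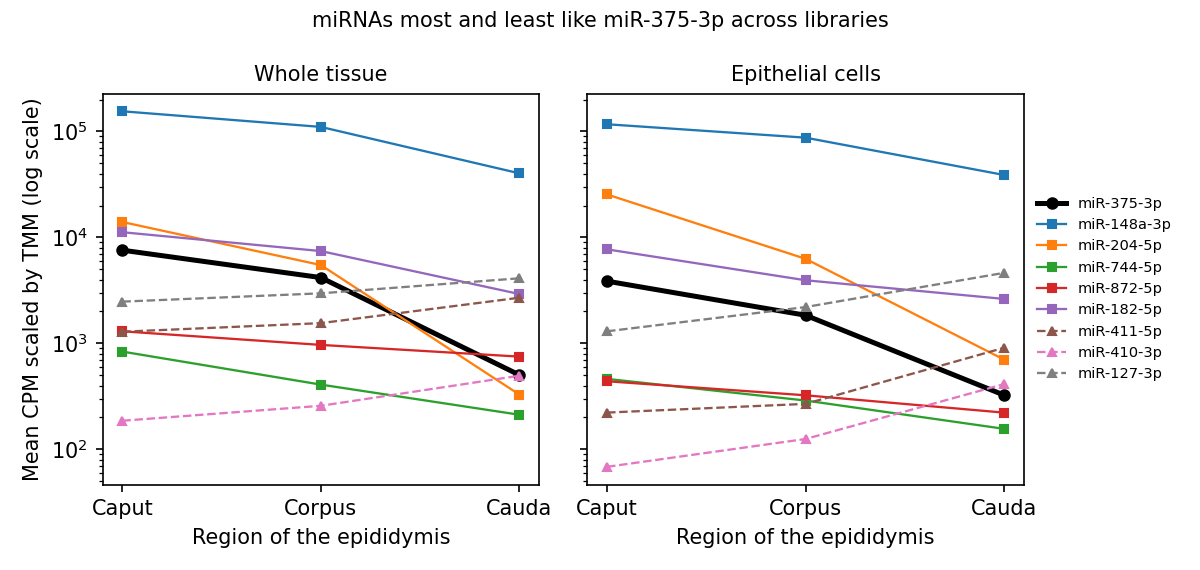
Mean CPM scaled by TMM, on a logarithmic axis, of miR-375-3p (black), the 5 miRNAs most like it (squares, solid lines) and the 3 least like it (triangles, dashed lines) by region, for whole tissue (left) and epithelial cells (right). miR-204-5p falls from 13985 to 329 CPM between caput and cauda of whole tissue, while miR-410-3p goes from 186 to 495 CPM.

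The mature sequences of these 8 miRNAs (RefSeq, GRCm38.p6) are shown to compare their seeds, bases 2 to 8, which are in capitals. Each of the 8 has a seed of its own.
miR-148a-3p: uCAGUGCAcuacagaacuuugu
miR-204-5p: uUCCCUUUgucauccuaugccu
miR-744-5p: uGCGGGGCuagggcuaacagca
miR-872-5p: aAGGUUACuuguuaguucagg
miR-182-5p: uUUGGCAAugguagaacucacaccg
miR-127-3p: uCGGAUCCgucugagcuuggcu
miR-410-3p: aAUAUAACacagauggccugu
miR-411-5p: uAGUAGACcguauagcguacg
The first 5 come from chr6:51269829-51269850 (minus strand), chr19:22750610-22750631 (plus), chr11:65734799-65734820 (minus), chr4:94665167-94665187 (plus) and chr6:30165962-30165986 (minus). The last 3 come from chr12:109592888-109592909, chr12:109743764-109743784 and chr12:109710190-109710210, all on the plus strand.

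The Mir375 hairpin lies at chr1:74900658-74900721 on the minus strand (RefSeq, GRCm38.p6). It is shown because it carries both arms of the miRNA, with the 5' arm product miR-375-5p in capitals.
Mir375: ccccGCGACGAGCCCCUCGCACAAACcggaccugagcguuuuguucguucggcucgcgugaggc
In the GENCODE vM21 annotation of the same assembly it overlaps no other gene. The nearest genes are Cfap65, 1350 bases away at chr1:74902071-74935599 on the minus strand, and the antisense gene Gm15841, 1650 bases away at chr1:74902371-74907653 on the plus strand. On the other side lies Cryba2, 7515 bases away at chr1:74889934-74893143 on the minus strand.

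The other arm of the hairpin gave no signal. miR-375-5p (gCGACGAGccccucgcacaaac, seed in capitals) was listed for epithelial cells only, with 0 counts in all 6 libraries. Against 3001 counts of miR-375-3p in the same libraries, a count of 0 allows miR-375-5p up to 0.09997% of the counts of both arms. In single libraries it allows between 8.27 CPM (caput replicate 1) and 33.7 CPM (corpus replicate 2). No comparison between regions could be made for this arm.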

How the data were processed

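The authors aligned trimmed reads to the mouse genome (mm10) and to mature miRNAs of miRBase release 21, and deposited unnormalized expected counts for each mature miRNA. The submitters' processing notes name CASAVA 1.8.2 and Bowtie 1.1.1. The epithelial values had 0.001 added, which was removed. All 14 libraries were used, with 0 columns left out. Expected counts were rounded to whole numbers. Values midway between whole numbers, 2.72% of whole tissue and 2.76% of epithelial values, went to the even number. Rounding these up had been run first, and the rule was changed after the calls were seen, because their numbers then came nearer to an earlier analysis of these data. Rounding up is therefore among the alternatives.

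Regions were compared by limma-voom on TMM-scaled counts, with all regions of a preparation in 1 fit, and preparations by 1 fit of all libraries. P-values were adjusted over all miRNAs tested. R 4.3.3, limma 3.58.1, edgeR 4.0.16 and DESeq2 1.42.0 were used, and the fits were tested on simulated data. The alternatives were DESeq2 size factors, library totals, no filter or at least 10 counts in every library, edgeR's quasi-likelihood and DESeq2's Wald test, only the regions compared, a replicate block, and each library left out. The crossed block and the rounding were added after seeing the data.

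The named miRNAs were miR-375-3p and -5p, the 5 most and 3 least correlated with it, its neighbours in mean level, those sharing its seed, which were not analysed here, and the marker lists. Members and lists were chosen with earlier results of these data known. List names were matched as given or with the letter a added or left out. The sources differ on whether libraries are biological or technical replicates, and the methods give 2 replicates per region where the labels give 3 for whole tissue caput and cauda, so that p-values and SDs may measure only technical spread. Whole tissue caput and cauda libraries with the same number deviated together (r = 0.218, 0.121 and 0.122). By these values the numbers could pair them, a pairing that would come from the data and not from the labels. No fit used this pairing alone. Corpus and cauda also deviated together (0.231 and 0.149), but over fewer pairs, and caput and corpus did not, so that no pairing was taken for the corpus. The main fits were unpaired, and the replicate block, which covered all regions of a preparation, was an alternative only.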

Additional observations from a re-analysis of the deposited data

Results flagged for a closer look

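Some reference miRNAs changed differently along the epididymis in the 2 preparations, which the interaction of preparation and region tested. From caput to cauda, the interaction (epithelial cells minus whole tissue, log2) was 1.43 for miR-200a-3p, 2.07 for miR-200b-3p and 1.73 for miR-429-3p (limma adjusted p = 7.01e-05, 1.14e-05 and 7.01e-05). For miR-143-3p it was -1.52 (limma adjusted p = 0.00297). From corpus to cauda it was 1.32 for miR-200b-3p and -1.54 for miR-143-3p (limma adjusted p = 0.0096 and 0.0143). From caput to corpus it was 1.02 for miR-429-3p (limma adjusted p = 0.0252). The last was not called in 5 of 8 alternatives, library totals (0.73), DESeq2 size factors (1.00), no filter (0.83), at least 10 counts in every library (0.78) and the DESeq2 Wald test (1.00), nor without any 1 of 7 libraries. Without epithelial cauda replicate 2 the call for miR-200a-3p from caput to cauda was lost (0.76), as was that for miR-200b-3p from corpus to cauda (0.92), and without epithelial corpus replicate 2 that for miR-143-3p from corpus to cauda (-1.51).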

How the results depend on the processing

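The log2 fold changes of miR-375-3p between regions were negative under all alternatives. From caput to cauda they lay between -3.91 and -3.48 in whole tissue and between -4.15 and -3.54 in epithelial cells, and with single libraries left out between -3.98 and -3.42 and between -5.04 and -2.78. From corpus to cauda, the alternatives gave -3.05 to -2.84 in whole tissue and -3.03 to -2.54 in epithelial cells. From caput to corpus they gave -0.99 to -0.50 and -1.21 to -0.90. Leaving out libraries gave -3.40 to -2.55 and -4.01 to -1.78 from corpus to cauda, and -1.26 to -0.36 and -1.23 to -0.88 from caput to corpus. Where a group was left with 1 library, that library was assumed to vary like the other groups. The preparation difference in caput lay between -1.37 (replicate block) and -0.78 under the alternatives, and was smaller with DESeq2 size factors (-0.99), library totals (-0.78), no filter (-0.96), at least 10 counts in every library (-0.98) and the DESeq2 Wald test (-1.07). In corpus it lay between -1.37 (replicate block) and -1.14, with -1.22 by the DESeq2 Wald test, and in cauda it lay between -1.42 (at least 10 counts in every library) and -0.84 (edgeR's quasi-likelihood test). Leaving out libraries gave -1.29 to -0.79 in caput, -1.75 to -0.81 in corpus and -2.47 to -0.22 in cauda. The interaction of miR-375-3p lay between -0.44 and 0.34 from caput to cauda under the alternatives, and between -1.58 and 0.87 with libraries left out. The cause of these changes was not tested. Differentially expressed miRNAs numbered 64 between whole tissue caput and corpus and 115 between caput and cauda with at least 10 counts in every library, which left fewer to test. In epithelial cells they numbered 54 between caput and corpus and 39 between corpus and cauda with no filter, and 16 between caput and corpus and 28 between caput and cauda with at least 10 counts in every library. With libraries left out they numbered 79 to 103, 75 to 100 and 175 to 194 in whole tissue, and 10 to 30, 4 to 27 and 26 to 60 in epithelial cells (caput to corpus, corpus to cauda, caput to cauda). Library totals changed the split to 76 higher and 35 lower from caput to corpus and 115 higher and 65 lower from caput to cauda in whole tissue, and to 18 and 9 and 39 and 19 in epithelial cells, and DESeq2 size factors gave 18 and 10 from caput to corpus there. Between preparations, 234, 266 and 258 miRNAs were called with no filter and 35, 38 and 40 with at least 10 counts in every library (caput, corpus, cauda). The interactions called from caput to cauda numbered 25 with DESeq2 size factors, 24 with the DESeq2 Wald test and 16 with at least 10 counts in every library. From corpus to cauda they numbered 8 with size factors, and from caput to corpus 3 with library totals and 3 with at least 10 counts in every library. Rounding midway values up gave 100, 93 and 189 calls in whole tissue and 29, 18 and 57 in epithelial cells, against 100, 93 and 188 and 25, 21 and 56.

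With the replicate number as a block, whole tissue gave 102, 101 and 187 calls and epithelial cells 27, 22 and 52. Deviations of same-numbered libraries were uncorrelated between whole tissue caput and corpus (r = -0.007 and -0.014). In epithelial cells they were positive between caput and corpus (r = 0.2) and negative between corpus and cauda (r = -0.09) and between caput and cauda (r = -0.137). With the cauda numbers crossed, a block chosen after seeing the data, epithelial calls numbered 40, 31 and 64. Depth was lowest in the epithelial corpus (127111 and 89039 counts), while miR-375-3p had its fewest counts in the epithelial cauda (31 and 112).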
